A study of Mus musculus with 282 samples.

Results

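Keratin and small proline-rich genes known from squamous epithelium and from healing skin were described in single basal cells of the mouse prostate. The 9 genes were Krt6a, Krt6b, Krt16, Krt13, Krt23, Krt80, Krt10, Sprr1a and Sprr1b. They were chosen by name, and each symbol matched 1 of the 48440 gene rows that both count tables list. The cells came from prostates of inflamed or naive POET3 mice, all male, and the labels call them basal prostate stem cells. POET3 mice carry an ovalbumin transgene that a prostate-specific promoter drives in the prostate epithelium, and both conditions carry it. How the inflammation was brought about, and the age and number of the mice, are left unstated by the labels. Dissociated cells were stained for CD45, CD31, Sca-1 and CD49f, sorted, and captured as single cells on a Fluidigm C1, which makes cDNA from 1 cell per chamber. The deposited cells fell into 2 batches, named batch 2 and batch 3 in the labels, and each batch held cells of both conditions. After cells with few genes or reads were left out, 80 inflamed cells and 53 naive cells remained in batch 2, and 76 inflamed cells and 59 naive cells in batch 3.

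Keratins are the intermediate filament proteins of epithelia, and each filament needs an acidic and a basic keratin. In stratified epithelia the basal layer makes Krt5 and Krt14, and the cells above it switch to other pairs according to the tissue. Krt6a and Krt6b (basic) with Krt16 (acidic) are the keratins that epidermis turns on around wounds and in inflamed, overgrowing skin. Krt13 is the acidic keratin of mucosal stratified epithelium such as oesophagus, where Krt4 is its partner. Krt10 is the acidic keratin of the suprabasal epidermis, where Krt1 is its partner. Krt23 is an acidic keratin whose partner is less well defined, and Krt80 is a basic keratin found near the cell margin in differentiated human epithelia. Sprr1a and Sprr1b encode small proline-rich proteins that transglutaminases cross-link into the cornified envelope, the protein shell of the outermost squamous cells. The normal prostate has a basal layer under secretory luminal cells and is not a squamous epithelium.

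In GRCm38 the basic keratins lie together on chromosome 15 (Krt6a at chr15:101689910-101694307, Krt6b at chr15:101676023-101680287 and Krt80 at chr15:101347444-101370162). The acidic keratins lie on chromosome 11 (Krt16 at chr11:100246091-100248902, Krt13 at chr11:100117327-100121566, Krt23 at chr11:99477974-99493137 and Krt10 at chr11:99385254-99389364). Sprr1a (chr3:92483952-92485895) and Sprr1b (chr3:92436809-92438789) lie on chromosome 3. All 9 genes are on the minus strand. Values here are reads counted per gene.

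How well each gene can be told from its relatives by 50-base reads bears on its counts, so the near-identical pairs are shown. The coding sequences of Krt6a and Krt6b, read from GENCODE M21, were identical at 97.8% of 1662 aligned positions. The 60 bases from coding position 817 to 876 were among the stretches where they differ most. In both lines capitals mark the 10 positions that differ.
Krt6a: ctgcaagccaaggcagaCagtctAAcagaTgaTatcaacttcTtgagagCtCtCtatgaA
Krt6b: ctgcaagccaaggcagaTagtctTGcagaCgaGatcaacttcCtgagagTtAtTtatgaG
Sprr1a and Sprr1b shared 82.8% of 435 aligned coding positions. The 60 bases from coding position 51 to 110 held 16 differences, again in capitals.
Sprr1a: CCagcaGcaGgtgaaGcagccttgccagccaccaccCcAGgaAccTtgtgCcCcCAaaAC
Sprr1b: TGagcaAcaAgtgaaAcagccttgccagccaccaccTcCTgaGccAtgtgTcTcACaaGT
Of all 50-base stretches of the Krt6a transcript, 61.96% occurred identically in a transcript of another gene, and 43.6% occurred in Krt6b. For Krt6b the share was 50.1%. For Krt16 it was 37.6%, shared with Gm11597, Krt14 and Krt17. It was 5.003% for Krt80 and 2.44% for Krt10, and it was 0 for Krt13, Krt23, Sprr1a and Sprr1b. The labels do not say how reads that map to several places were treated, so the counts of Krt6a, Krt6b and Krt16 are uncertain to that extent. Exons of antisense genes overlap Krt6a, Krt6b, Krt80 and Krt10, and the counting is not stated to use strand, so reads of these 4 genes and of their antisense partners cannot be told apart.

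The kept cells had a median of 1001872 counted reads in inflamed batch 2, 998865 in inflamed batch 3, 971069 in naive batch 2 and 840863 in naive batch 3, so the naive cells of batch 3 were the shallowest. Reads of all 10 basal epithelial markers were present in every sum of cells, and their summed level was 13899 and 13938 CPM (CPM, counts scaled to a common library total, here of the reads summed over the cells of 1 condition and batch) in inflamed cells, against 8277 and 10111 CPM in naive cells. Krt17 made up most of that difference, at 6864 and 5813 CPM against 1668 and 3704 CPM, and Krt15 added to it, at 3082 and 4002 CPM against 2651 and 2389 CPM. Within both batches 5 of the 10 markers were higher in inflamed cells and 2 lower, against 30.9% and 28.3% of all genes tested. The 2 lower were Krt5 and Trp63 (83.01 and 294.0 CPM, against 268.9 and 344.5 CPM). The median within-batch log2 folds of the 10 markers were 0.15 and 0.08. The 13 luminal markers summed to 2238 and 1775 CPM in inflamed cells, against 1983 and 2486 CPM in naive cells. Of 14 leukocyte markers, 11 had no read in any sum, Ptprc (CD45) among them. The urothelial list summed to 356 and 431 CPM in inflamed cells, against 72.5 and 33.8 CPM in naive cells, and nearly all of it was Upk1b (355 and 429 CPM, against 67.1 and 33.8 CPM). The defining uroplakin Upk3a had no read, and Upk1a and Upk2 had reads only in inflamed batch 2, at 0.292 and 0.165 CPM. Upk1b was thus higher in the same 2 sums as most of the genes described here, and its part in the result was not tested. The labels name no animal, so the 4 sums were the units of the test, and its p-values do not measure the spread between mice. The test had 1 residual degree of freedom, so its spread was in part borrowed from all genes (2.66 prior degrees of freedom).

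Of the 8 genes tested, 7 had a higher level in both inflamed sums than in either naive sum, and Krt10 alone had a lower level in both. Among the 14713 genes tested, both inflamed sums lay above both naive sums for 24.3% and below them for 21.3%. Krt6b did not pass the filter on low counts. Its single read in inflamed batch 2 (0.0127 CPM) lay under the limit of 3 counts for naive batch 2 (0.0532 CPM). Sprr1b passed the filter through the inflamed sums alone, having no read in naive cells. Krt6a (5 and 15 naive reads), Krt16 (1 and 65) and Krt80 (0 and 37) had too few reads in naive batch 2 to pass without the inflamed sums. These genes and Sprr1b could therefore hardly come out lower, which limits the comparison with the shares of all genes. In edgeR's quasi-likelihood test Krt6a, Krt13, Krt23 and Sprr1a had an unadjusted p under 0.05 and a higher inflamed level, as had 5.04% of all genes. None of the 9 passed an adjusted p of 0.05, and neither did any other gene (0% of 14713), where the lowest adjusted p was 0.568 with 1 residual degree of freedom. DESeq2's Wald test on the same sums called Krt6a, Krt16, Krt13, Krt23 and Sprr1a higher, and it called 7.13% of the 13001 genes with an adjusted p higher.

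**Figure D1:**
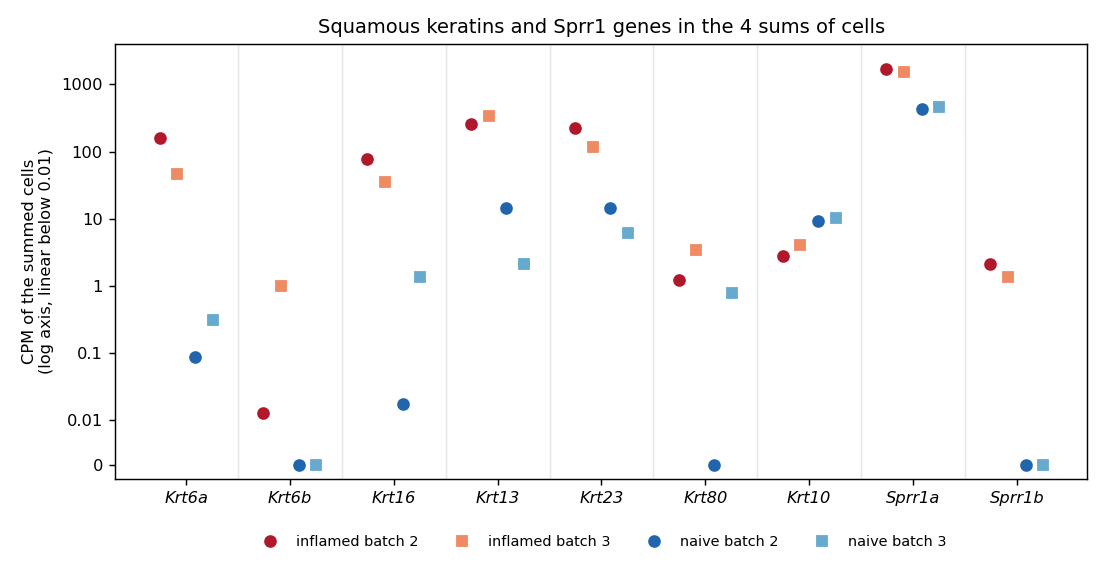
Level of each of the 9 genes, in CPM on a log axis that is linear below 0.01, in the 4 sums of cells (circles, batch 2; squares, batch 3; red, inflamed; blue, naive). The inflamed points of Krt6a, Krt16, Krt13, Krt23 and Sprr1a lie above both naive points, and those of Krt10 lie below them.

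The wound keratin Krt6a stood at 162.2 CPM in inflamed batch 2 and 47.2 CPM in inflamed batch 3, against 0.0886 CPM in naive batch 2 and 0.316 CPM in naive batch 3. The naive levels rest on 5 and 15 reads in all. The fitted log2 fold change of Krt6a was 8.92 ± 1.53 (SE; p = 0.00562, adjusted p = 0.568, edgeR quasi-likelihood test; DESeq2 adjusted p = 4.07e-19). With 1 sum left out in turn it ran from 7.87 without inflamed batch 2 to 10.23 without naive batch 3. Such fits, here and below, also left out the batch term, and without that term alone the fold was 9.02. At least 5 reads of Krt6a were found in 26 of 80 inflamed cells (32.5%, exact Clopper-Pearson 95% interval 22.4 to 43.9%) and 15 of 76 inflamed cells (19.7%, 11.5 to 30.5%). In naive cells the numbers were 0 of 53, which allows up to 5.66%, and 1 of 59 (1.69%, 0.0429 to 9.09%), whose cell had 5 reads. These intervals and limits cover counting error only. Inflamed cells with at least 5 reads had a median Krt6a level of 225.8 CPM in batch 2 and 155.3 CPM in batch 3, with highest cells at 2531 and 855 CPM. Krt6a was therefore abundant in a minority of inflamed cells and close to absent in naive cells at this depth. A further 22 and 7 inflamed cells, against 5 and 7 naive cells, had only 1 to 4 reads.

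Krt16, the acidic partner of the Krt6 proteins, stood at 78.8 and 35.4 CPM in the inflamed sums, against 0.0177 and 1.37 CPM in the naive sums of batches 2 and 3. Naive batch 2 had a single read, so the batch 2 ratio of 4445 has a counting interval of 798 to 175611. In naive batch 3, 49 of 65 reads came from 1 cell. The fitted log2 fold change of Krt16 was 7.81 ± 2.77 (SE; p = 0.0529, adjusted p = 0.568, edgeR; DESeq2 adjusted p = 5.32e-08). It was 5.38 without naive batch 2 and 11.56 without naive batch 3. Cells with 5 or more Krt16 reads numbered 31 of 80 and 27 of 76 inflamed cells (38.8% and 35.5%), against 0 of 53 and 3 of 59 naive cells (0 and 5.08%). The intervals of the inflamed shares overlapped between the batches, at 28.1 to 50.3% and 24.9 to 47.3%. Krt6b, the close copy of Krt6a, had 1 read in inflamed batch 2, 75 reads in inflamed batch 3 and none in naive cells. All 75 reads came from 1 cell that also had 90 reads of Krt6a. In batch 3 the Krt6b sum was at least 15.6-fold higher in inflamed cells than the limit of 3 counts per sum allows for naive cells.

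Krt13, the mucosal keratin, stood at 259 and 343 CPM in the inflamed sums, against 14.7 and 2.13 CPM in the naive sums of batches 2 and 3. The log2 fold change of Krt13 was 5.72 ± 1.14 (SE; p = 0.00931, adjusted p = 0.568, edgeR; DESeq2 adjusted p = 8.18e-13), and within the batches it was 4.14 and 7.31. It ran from 4.41 without naive batch 3 to 7.15 without naive batch 2. Cells with 5 or more Krt13 reads numbered 24 of 80 and 41 of 76 inflamed cells, against 3 of 53 and 1 of 59 naive cells (5.66% and 1.69%). In inflamed batch 3 Krt13 was the most widely detected of the 7 keratins at 5 reads, with an interval of 42.1 to 65.5%. Its highest cell was in inflamed batch 2, at 7679.7 CPM, and gave 37.5% of that sum. The naive sums rested on few cells, and 1 cell gave 51.03% of the naive batch 2 reads and 80.2% of the naive batch 3 reads. Without the top cell of each sum, Krt13 stood at 162.2 and 302.1 CPM in inflamed cells, against 7.18 and 0.421 CPM in naive cells, and its within-batch log2 folds were 4.49 and 9.38.

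Krt23 stood at 221.9 and 118.2 CPM in the inflamed sums, against 14.5 and 6.17 CPM in the naive sums of batches 2 and 3. Its log2 fold change was 4.10 ± 0.50 (SE; p = 0.00178, adjusted p = 0.568, edgeR; DESeq2 adjusted p = 4.28e-09), with 3.93 and 4.25 within the batches, and it ran from 3.53 without inflamed batch 2 to 4.79 without naive batch 2. Without the top cell of each sum, Krt23 stood at 191.8 and 88.3 CPM in inflamed cells, against 6.93 and 1.43 CPM in naive cells, and the within-batch log2 folds were 4.78 and 5.92. For Krt23 the cells with 5 or more reads numbered 33 of 80 and 20 of 76 inflamed cells (41.3% and 26.3%), against 2 of 53 and 2 of 59 naive cells (3.77% and 3.39%). The 2 naive cells of batch 2 had 367 and 437 CPM of Krt23, which is within the range of the inflamed cells. They held all but 4 of the 819 naive batch 2 reads. Krt23 was thus present at a high level in a few naive cells and in many inflamed cells.

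**Figure D2:**
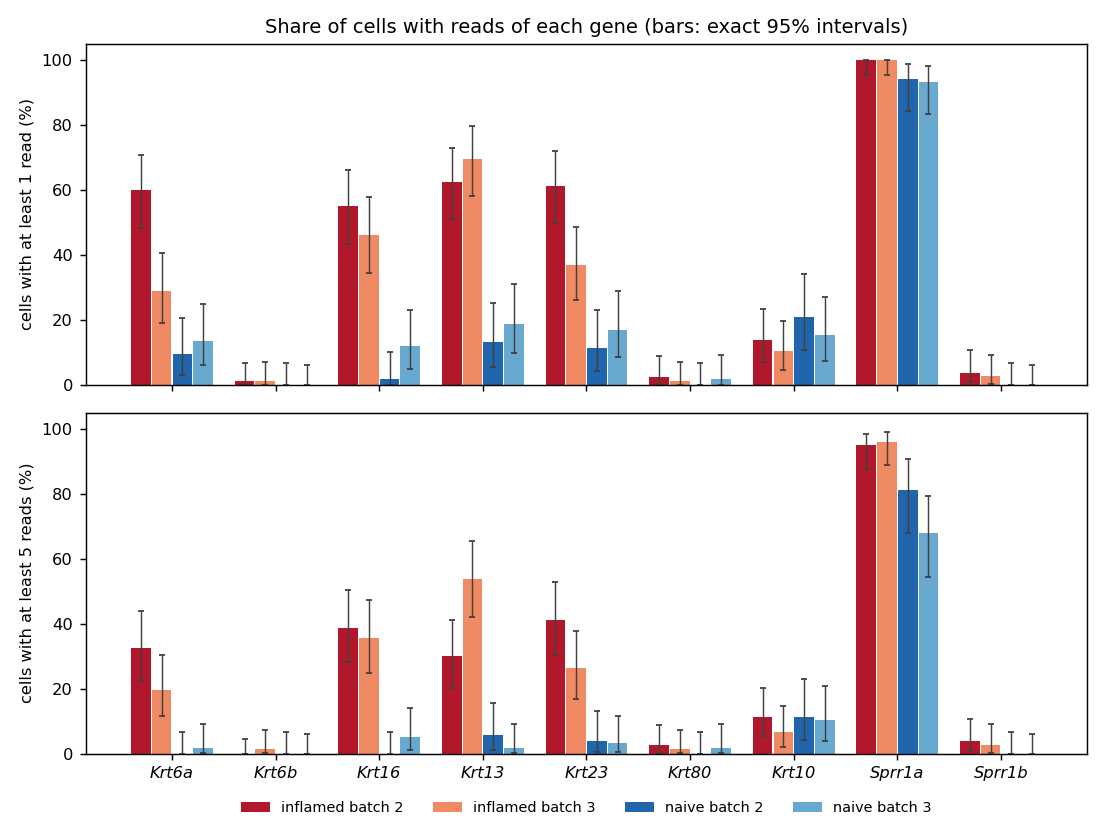
Share of kept cells, in percent, with at least 1 read (upper panel) or at least 5 reads (lower panel) of each gene, with exact 95% intervals as lines. At 5 reads Krt6a, Krt16, Krt13 and Krt23 lie between 19.7% and 53.9% in inflamed cells and at or under 5.66% in naive cells, while the intervals of Krt10 overlap.

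With 1 read as the limit the inflamed shares were larger still. In batches 2 and 3 a read was found in 48 of 80 and 22 of 76 inflamed cells for Krt6a, 44 and 35 for Krt16, 50 and 53 for Krt13, and 49 and 28 for Krt23. In naive cells the numbers were 5 of 53 and 8 of 59 for Krt6a, 1 and 7 for Krt16, 7 and 11 for Krt13, and 6 and 10 for Krt23. No cell type that should lack these keratins was among the wells, so no background share could be measured, and the share at 5 reads is given beside each. The 4 keratins kept a larger share in inflamed cells within both batches when cells were thinned to 500000 reads. Krt6a, for example, then had at least 5 reads in 34.3% and 19.4% of inflamed cells, against 0 and 0 of naive cells. Within the inflamed cells, Krt6a was detected in a smaller share in batch 3 than in batch 2, and Krt13 at 5 reads in a larger one.

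Krt80 stood at 1.23 and 3.42 CPM in the inflamed sums, against 0 and 0.779 CPM in the naive sums of batches 2 and 3. Its reads lay in 2 and 1 inflamed cells and in 1 naive cell of batch 3. In inflamed batch 3 a single cell gave all 260 reads, and it had 2 reads of Sprr1a and none of Krt6a, Krt16, Krt13 or Krt23. The log2 fold change of Krt80 was 4.69 ± 3.20 (SE; p = 0.224, adjusted p = 0.771, edgeR), and without the top cell of each sum no read was left in batch 3. In inflamed batch 2 a single cell gave 90.7% of the reads, and 9 reads (0.114 CPM) were left without it. Leaving out naive batch 2 gave a log2 fold change of 1.57, and leaving out naive batch 3 gave 10.37. With reads in 4 cells in all, no difference in its share of cells was detectable.

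Krt10, the suprabasal epidermal keratin, was the exception in direction. It stood at 2.75 and 4.01 CPM in the inflamed sums, against 9.32 and 10.4 CPM in the naive sums of batches 2 and 3. Its log2 fold change was -1.57 ± 1.52 (SE; p = 0.366, adjusted p = 0.868, edgeR), and within the batches it was -1.75 and -1.37. The SE of the fit was thus nearly as large as the fold, although the sums of the 2 conditions did not overlap. At least 5 reads of Krt10 were found in 9 of 80 and 5 of 76 inflamed cells (11.3% and 6.58%), against 6 of 53 and 6 of 59 naive cells (11.3% and 10.2%). Among those cells the median level was 9.28 and 19.5 CPM in inflamed cells and 99.1 and 59.8 CPM in naive cells. The share of cells with Krt10 therefore overlapped between the conditions. Its partner Krt1 had 0.444 and 0 CPM in inflamed sums, against 0 and 0.0421 CPM in naive sums.

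Per length of exon, Sprr1a had the highest level of the 9 genes in every sum. It stood at 1699.9 and 1540.4 CPM in the inflamed sums, against 428 and 461 CPM in the naive sums of batches 2 and 3. Per kilobase of exon the inflamed levels were 2109 and 1911 CPM for Sprr1a, followed by Krt13 and Krt23 (142.5 and 188.2, and 141.8 and 75.6), Krt6a (67.1 and 19.5) and Krt16 (50.3 and 22.6). Krt13 and Krt23 were level in batch 2, and Krt6a and Krt16 changed places between the batches. The log2 fold change of Sprr1a was 1.86 ± 0.27 (SE; p = 0.00306, adjusted p = 0.568, edgeR; DESeq2 adjusted p = 0.00145), the smallest of the 5 that DESeq2 called.

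Sprr1a differed from the keratins in how it was spread over cells. At least 1 read was found in 80 of 80 and 76 of 76 inflamed cells, against 50 of 53 and 55 of 59 naive cells, so the share of cells with a read hardly separated the conditions. The median level in a cell was 1085 and 929 CPM in inflamed cells, against 36.7 and 8.93 CPM in naive cells. The lower and upper quartiles were 129.2 to 2736 and 215.9 to 2215 CPM in inflamed cells, against 9.04 to 575.5 and 3.88 to 18.8 CPM in naive cells. At or above 100 CPM, a limit set after the values were seen, were 77.5% and 84.2% of inflamed cells, against 39.6% and 16.9% of naive cells. The ranges overlapped, and 8 of 53 and 7 of 59 naive cells lay above the inflamed median of their batch. The highest naive cell, in batch 3, had 9351 CPM and gave 31.1% of that sum.

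Sprr1b was rare beside it. It had 2.16 and 1.35 CPM in the inflamed sums, against no read in either naive sum. Against the limit of 3 counts per sum, Sprr1b was at least 40.6-fold higher in inflamed cells in batch 2 and at least 21.4-fold higher in batch 3. A single cell gave 63.5% of the batch 2 reads and another 67.96% of the batch 3 reads, and 0.786 and 0.434 CPM were left without them. The reads lay in 3 of 80 and 2 of 76 inflamed cells, and 0 of 53 and 0 of 59 naive cells allow shares of up to 5.66% and 5.08%.

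**Figure D3:**
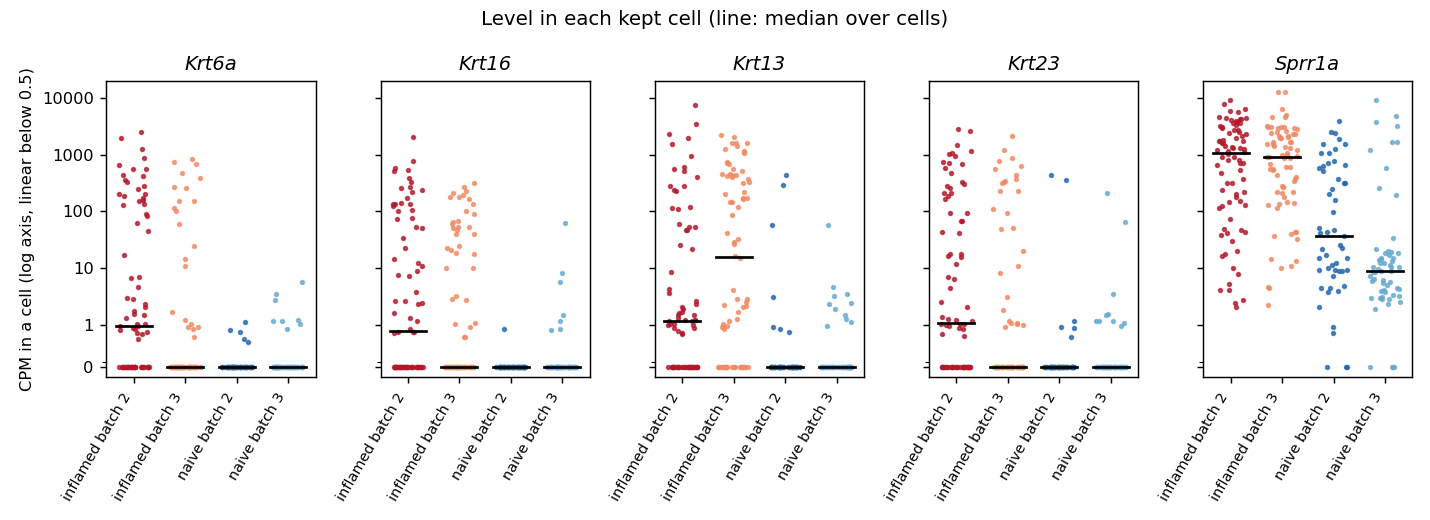
Level of Krt6a, Krt16, Krt13, Krt23 and Sprr1a in each kept cell, in CPM on a log axis that is linear below 0.5, by condition and batch, with the median as a line. The 4 keratins form a high cloud in part of the inflamed cells and a few points in naive cells, while Sprr1a is present in nearly all cells and its median is 1085 and 929 CPM in inflamed cells against 36.7 and 8.93 CPM in naive cells.

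The stretch before the transcription start was searched for motifs in the 5 genes with an entry in the RefSeq table (GRCm38.p6), which were Krt13, Krt23, Krt10, Sprr1a and Sprr1b. The motifs were the AP-1 site TGANTCA, the STAT site TTCNNNGAA and the box TATAAA, searched on both strands of the 250 bases before the start. No matches overlapped. The windows of the 3 genes with an AP-1 letter match are shown, since AP-1 is the factor best known for controlling human SPRR1B. Capitals mark TGANTCA and TATAAA.
Sprr1a chr3:92485882-92486131 minus strand: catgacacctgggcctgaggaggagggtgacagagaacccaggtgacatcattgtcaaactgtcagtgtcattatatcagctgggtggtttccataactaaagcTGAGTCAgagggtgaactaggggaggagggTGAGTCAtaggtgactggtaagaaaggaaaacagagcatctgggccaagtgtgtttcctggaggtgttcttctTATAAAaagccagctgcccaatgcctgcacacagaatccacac
Sprr1b chr3:92438780-92439029 minus strand: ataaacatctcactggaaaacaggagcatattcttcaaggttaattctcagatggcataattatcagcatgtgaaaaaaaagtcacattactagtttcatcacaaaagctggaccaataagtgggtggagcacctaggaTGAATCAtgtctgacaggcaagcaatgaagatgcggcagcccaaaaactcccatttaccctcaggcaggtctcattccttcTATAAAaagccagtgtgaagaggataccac
Krt13 chr11:100121567-100121816 minus strand: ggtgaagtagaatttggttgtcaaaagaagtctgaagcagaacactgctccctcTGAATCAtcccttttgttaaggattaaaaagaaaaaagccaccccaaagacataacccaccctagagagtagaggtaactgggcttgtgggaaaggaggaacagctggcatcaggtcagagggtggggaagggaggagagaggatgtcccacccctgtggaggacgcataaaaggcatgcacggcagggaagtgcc
Sprr1a held AP-1 letters at -146 and -116, Sprr1b at -111 and Krt13 at -196, counted from the start in the RefSeq table. For Sprr1a, Sprr1b and Krt23 that start lies some bases inside the gene span given above, so their windows begin within it. A second annotated start of Krt13 had matches at -183 and -34, and Krt23 and Krt10 had none. TATAAA stood at -43 in Sprr1a, -30 in Sprr1b and -26 in Krt10. Of 32851 mouse promoter windows of the same length, 6.75% held TGANTCA, 12.4% held TATAAA and 7.02% held TTCNNNGAA, which none of the 5 genes held. These matches describe letters in a window and were not tested for binding. Sprr1a and Sprr1b held both motifs in the same order, and Sprr1a was read in nearly every cell and Sprr1b in 5 inflamed cells.

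Several of these keratins were often read in the same inflamed cell. At 5 reads, 2 or more of Krt6a, Krt16, Krt13 and Krt23 were present in 46.3% and 42.1% of inflamed cells (exact 95% intervals 35.03 to 57.8% and 30.9 to 53.98%), against 0 of 53 and 0 of 59 naive cells, which allow up to 5.66% and 5.08%. At least 1 of the 4 was present in 73.8% and 82.9% of inflamed cells, against 9.43% and 11.9% of naive cells. All 4 were present in 4 of 80 inflamed cells of batch 2 and in 0 of 76 of batch 3. At 1 read, 2 or more were present in 77.5% and 64.5% of inflamed cells, against 7.55% and 15.3% of naive cells. In cells thinned to 500000 reads the shares with 2 or more at 5 reads were 42.9% and 41.7%, against 0 and 0. Inflamed cells with none of the 4 at 5 reads had a median of 830818 and 922136 counted reads, and those with 3 or 4 had 1050673 and 1142129, so depth moved with the number of keratins read, and the thinned shares are the values at equal depth.

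**Figure D4:**
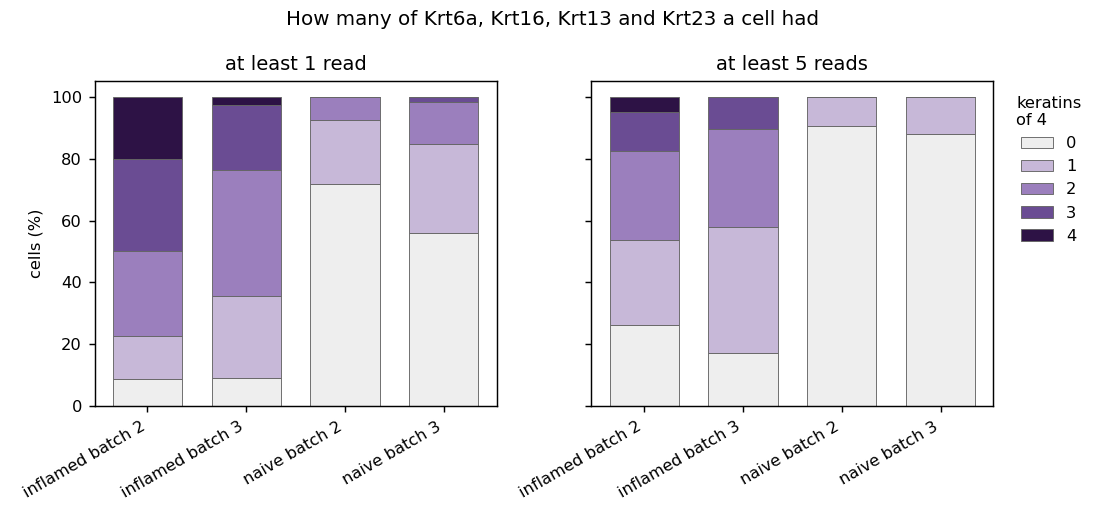
Share of kept cells, in percent, with 0 to 4 of Krt6a, Krt16, Krt13 and Krt23 at 1 read (left) and at 5 reads (right), by condition and batch. At 5 reads 46.3% and 42.1% of inflamed cells had 2 or more, and no naive cell had more than 1.

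How often pairs of these keratins were read together differed between the inflamed batches. At 5 reads, all 6 pairs were read together in more cells than the product of their shares gives in batch 2, and 2 of 6 in batch 3. Cells with none of the 4 keratins numbered 21 in batch 2, where the product gives 13.6, and 13 in batch 3, where it gives 13.3. Krt6a and Krt23 were read together in 17 of 80 and 7 of 76 inflamed cells, where the product of the shares gives 10.7 and 3.95. At 1 read the same pair was found in 35 and 8 cells, where the product gives 29.4 and 8.11, so its excess at 5 reads in batch 3 was not seen at 1 read. Krt16 and Krt23 were read together in 13 and 3 cells, where the product gives 12.8 and 7.11. Krt16 and Krt13 were read together in 12 and 14 cells, where the product gives 9.30 and 14.6. At 1 read the inflamed cells with Krt13 numbered 50 of 80 and 53 of 76, and among them 32 and 16 had Krt6a, 30 and 26 had Krt16, and 31 and 20 had Krt23. Across 70 and 72 thinned inflamed cells of batches 2 and 3, each set captured in 1 batch, Spearman's rho between levels of any 2 of Krt6a, Krt16, Krt13, Krt23, Krt10 and Sprr1a lay between -0.31 (Krt16 and Krt23, batch 3) and 0.39 (Krt6a and Krt23, batch 2). For Krt6a and Krt23 it was 0.39 in batch 2 and 0.09 in batch 3.

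**Figure D5:**
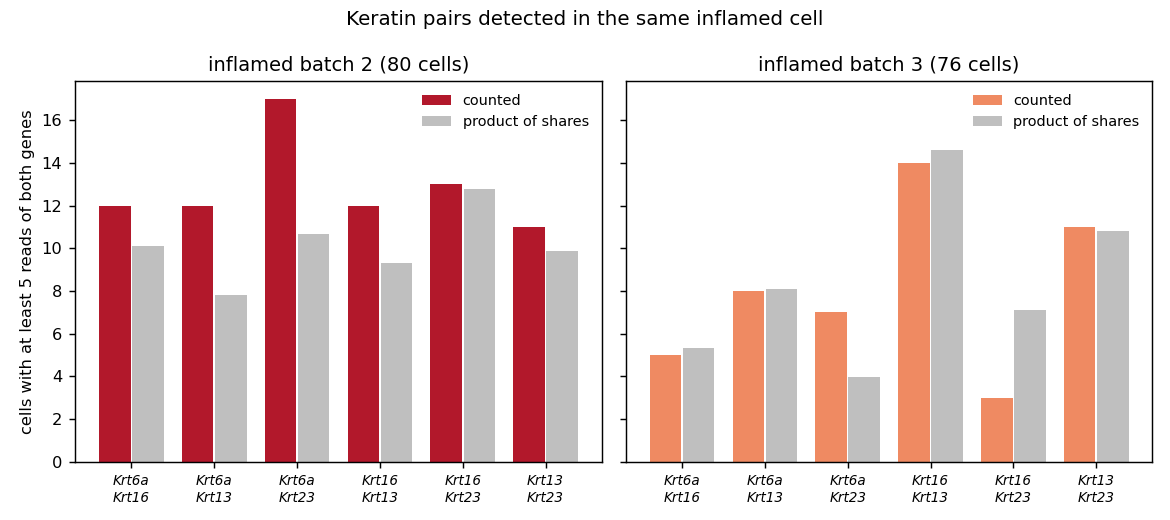
Number of inflamed cells with at least 5 reads of both genes of a keratin pair (coloured bars) beside the number that the product of the 2 shares gives (grey bars), in batch 2 (left, 80 cells) and batch 3 (right, 76 cells). Krt6a with Krt23 has 17 against 10.7 cells and 7 against 3.95 cells, and Krt16 with Krt23 has 3 against 7.11 cells in batch 3.

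Sprr1a was set beside the number of these keratins in a cell. Its median was 379 and 283 CPM in the 21 and 13 inflamed cells with none of the 4 keratins at 5 reads. It was 1037 and 1001 CPM in the 45 and 55 cells with 1 or 2, and 1678 and 719.6 CPM in the 14 and 8 cells with 3 or 4. The ranges of these classes overlapped widely. The highest Sprr1a level of inflamed batch 2, 9298 CPM, was in a cell with none of the 4. A single inflamed cell of batch 2 had at least 5 reads of 7 of the 9 genes, namely 389 reads of Krt6a, 281 of Krt16, 1063 of Krt13, 48 of Krt23, 6 of Krt10, 80 of Sprr1a and 8 of Sprr1b. In contrast, the inflamed cell with the most Sprr1b reads had 3751 reads of Sprr1a and none of the 7 keratins.

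No gene followed 1 of these genes closely from cell to cell. Among 5978 genes read in at least 20% of the inflamed cells of both batches, none reached a Spearman's rho of 0.4 with Krt6a, Krt16, Krt13, Krt23, Krt10 or Sprr1a in both batches. The highest for Krt6a was Col4a3bp, with 0.37 and 0.36 over 70 and 72 cells, and it was named after its values were seen.

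Related keratins were read next to the 9 genes. Of 10 partner and related stratified keratins, 5 were tested and 5 were higher in inflamed cells within both batches, as were 30.9% of all genes tested, while 28.3% of all genes were lower within both. Of the 5, 2 had an unadjusted p under 0.05 and a higher level, as had 5.04% of all genes. A further gene of the 5 had 2 reads in naive batch 3 and passed the filter on low counts only with the inflamed sums. It could hardly come out lower within both batches. Their median within-batch log2 folds were 2.04 and 0.75, against 0.05 and 0.06 for all genes. Krt17, the partner of Krt6 in activated and basal keratinocytes, stood at 6864 and 5813 CPM in inflamed sums, against 1668 and 3704 CPM in naive sums (log2 fold change 1.35 ± 0.44, p = 0.0426). Krt4, the mucosal partner of Krt13, stood at 68.1 and 223 CPM, against 7.51 and 33.01 CPM (2.97 ± 0.50, p = 0.00548). Krt15 and Krt7 had log2 fold changes of 0.48 ± 0.26 and 1.51 ± 0.60. All of these had an adjusted p of 0.568 or more in edgeR's test. Among the 5 basal and luminal keratins, Krt19 stood at 584 and 619 CPM in inflamed sums, against 30.3 and 100.9 CPM in naive sums (3.44 ± 0.58, p = 0.00545, adjusted p = 0.568), and Krt5 stood at 139.3 and 169.9 CPM, against 338.9 and 198.6 CPM (-0.75 ± 0.44, p = 0.166, adjusted p = 0.710).

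Of the 14 other Sprr genes, 5 were tested, of which 4 were higher and 1 was lower within both batches, with median log2 folds of 2.64 and 7.61. The shares over all genes tested were 30.9% and 28.3%. Some of the higher Sprr genes had no read in 1 or both naive sums and passed the filter on low counts only with the inflamed sums. Such genes could hardly come out lower within both batches. For the gene with no naive read at all, a single cell gave 100.0% of the reads in inflamed batch 2 and 99.9% in inflamed batch 3. Sprr2a3, another cornified envelope precursor, stood at 123.4 and 207.6 CPM in inflamed sums, against 7.04 and 1.03 CPM in naive sums (log2 fold change 5.87 ± 1.30, p = 0.0133, adjusted p = 0.568, edgeR). Of 27 cornified envelope genes, 15 were tested, and 8 were higher and 1 was lower within both batches, against 30.9% and 28.3% of all genes tested. Of the higher, 4 had an unadjusted p under 0.05, as had 5.04% of all genes. Anxa1, an envelope protein and regulator of inflammation, had 4560.1 and 2598 CPM, against 398 and 334 CPM (3.24 ± 0.30, p = 0.000657). Dmkn, a secreted protein of differentiating epidermis, had 40.7 and 5.05 CPM, against 0.0177 and 0.0421 CPM, the naive levels being 1 and 2 reads. Dmkn, like others of the 4, passed the filter on low counts through the inflamed sums alone, so it could hardly come out lower. Ppl and Cstb had log2 fold changes of 0.40 ± 0.64 and 0.84 ± 0.30. The envelope's late components were near absent, since Lor had at most 0.590 CPM in any sum and Flg2, Hrnr, Rptn, Cnfn, Lce1a1 and Lce3a had no read. Their median within-batch log2 folds were 1.05 and 1.64 over the 15 envelope genes tested, against 0.05 and 0.06 for all genes.

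Of 20 genes of activated keratinocytes, 14 were tested, and 11 were higher and 2 were lower within both batches, against 30.9% and 28.3% of all genes tested. Of the higher, 6 had an unadjusted p under 0.05, as had 5.04% of all genes. The median within-batch log2 folds of the 14 were 1.93 and 2.45. Il1a, Tnc and Ereg, among the 6, had at most 4 reads in a naive sum. They passed the filter on low counts through the inflamed sums alone, so they could hardly come out lower. The cytokine gene Il1a stood at 147.5 and 78.4 CPM in inflamed sums, against 0 and 0.0843 CPM in naive sums (p = 0.00469, adjusted p = 0.568). Tnc, a matrix protein of healing tissue, stood at 110.2 and 43.9 CPM, against 0 and 0.0843 CPM. The receptor ligand Ereg stood at 43.4 and 15.2 CPM, against 0.0532 and 0.0421 CPM. Cd44, a hyaluronan receptor, stood at 1214 and 1109.5 CPM, against 260.1 and 147.8 CPM (2.57 ± 0.34, p = 0.00233). Areg, a further ligand of the epidermal growth factor receptor, had a log2 fold change of 4.34 ± 1.84. S100a8, S100a9, Il36a, Il36b and Il36g, which inflamed epidermis makes in quantity, had no read in any sum.

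Desmosome genes and regulators gave mixed directions. Of all 14713 genes tested, 30.9% were higher and 28.3% lower within both batches. At an unadjusted p under 0.05 in edgeR's test, 742 were higher and 475 lower. Of 13 desmosome and junction genes tested, 5 were higher and 2 lower within both batches, with median log2 folds of 0.35 and 0.06. Dsc2 and Dsc3, desmosomal cadherins, had log2 fold changes of 5.19 ± 3.93 and 2.01 ± 0.98, and Dsg2, Perp and Cldn4 had 0.34 ± 0.33, -0.49 ± 0.27 and -0.50 ± 0.26. Of 23 regulators of stratified differentiation tested, 6 were higher and 12 lower within both batches, 2 and 1 of them at an unadjusted p under 0.05, with median log2 folds of -0.27 and -0.48. Zfp750, a regulator of late epidermal differentiation, stood at 39.9 and 9.60 CPM in inflamed sums, against 0 and 0.0211 CPM in naive sums (p = 0.0179, adjusted p = 0.568). With 0 and 1 naive reads, Zfp750 passed the filter on low counts through the inflamed sums alone. Maf, which acts in human epidermal differentiation, stood at 191.2 and 213.4 CPM, against 699.9 and 480.3 CPM (-1.52 ± 0.35, p = 0.0146). Klf4 and Sox2 had log2 fold changes of -0.81 ± 0.31 and -1.94 ± 1.67.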

How the data were processed

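Single cells were sequenced as single-end 50-base reads, per the labels' protocols. TopHat2 and HTSeq on GRCm38.p6, and Seurat 1.4 under R 3.4.1, are named in the submitters' processing notes, with no parameters. The deposited values were raw read counts per gene and cell without molecular identifiers, so reads are not independent molecules. Each sample was 1 cell, and its condition and batch came from the labels. Symbols were taken from GENCODE M21, which matched 48058 of 48440 gene IDs. No 2 cells held identical counts.

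Of 282 cells, 268 with at least 1000 genes and 50000 reads were kept, and reads were summed per condition and batch to 79225330 and 78459122 in inflamed cells and 52061533 and 50105953 in naive cells. The sums were fitted with edgeR 4.0.16 (TMM scaling, default low-count filter, batch as a term, quasi-likelihood F test, Benjamini-Hochberg adjustment over 14713 genes). DESeq2 1.42.0 was an alternative, with 1712 adjusted p left NA. Fits with 1 sum left out had condition alone and no batch term. The batch in the labels pairs the sums, and the correlation of their batch deviations was -0.011. The SE of a log2 fold change was back-computed from that F test, as the absolute fold over the square root of F. It therefore carries no spread beyond the edgeR p-value. CPM used TMM-scaled totals. Within-batch folds used a prior count of 2. Shares of cells have Clopper-Pearson 95% intervals, and a count of 0 is given a limit of 3. Cells were thinned to 500000 reads, which 25 were too shallow for.

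The genes and lists were chosen with earlier results of these data known. Named from each list were up to 5 genes read in at least 20% of the cells of a sum with 1 direction in both batches, ordered by the smaller within-batch fold. Others named are members, markers or genes at 0. A gene that the rule names is not reported here.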

Additional observations from a re-analysis of the deposited data

Results flagged for a closer look

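The 14 cells left out of every comparison for few genes or reads, 7 inflamed and 7 naive, were read for the 9 genes. At least 5 reads of Sprr1a were found in 7 of the 7 inflamed cells, against 2 of the 7 naive cells. At least 5 reads of Krt13 were found in 1 of the 7 inflamed cells, against 0 of the 7 naive cells. Both stood out because a signal appeared in cells outside the comparisons above its level in naive cells. For Krt6a, Krt6b, Krt16, Krt23, Krt80, Krt10 and Sprr1b, 0 of the 14 cells had 5 reads.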

How the results depend on the processing

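No direction among the 8 genes tested reversed under any alternative that was run. With DESeq2's Wald test, 1461 genes and 5 of the 9 genes passed an adjusted p of 0.05, against 0 and 0 with edgeR, and 0 and 0 with edgeR under every other setting, where the number at an unadjusted p under 0.05 and higher was between 4 and 6 of the 9. Without the replicate block, that is with condition alone and the batches not paired, 0 genes passed. In that fit 6 of the 9 had an unadjusted p under 0.05 and a higher level. So had 1155 of all 14713 genes, against 742 in the main edgeR fit, so the number over all genes rose too. Among the other edgeR settings with all 4 sums, the share over all genes was lowest with no filter on low counts (694 of 22932). It was highest for genes with reads in 20% of cells (508 of 6981). Fits with 1 sum left out rest on a single sum in 1 condition. Over the edgeR alternatives the lowest and highest adjusted p were 0.170 and 0.800 for Krt6a, 0.343 and 0.800 for Krt16, 0.208 and 0.800 for Krt13, 0.139 and 0.800 for Krt23, 0.439 and 0.985 for Krt80, 0.575 and 0.940 for Krt10, 0.139 and 0.800 for Sprr1a, and 0.297 and 0.800 for Sprr1b. The number of the 9 genes with a larger share of inflamed cells in both batches was 7 at 1 read. It was 6 at 5 reads, in thinned cells, and at 5 reads in thinned cells, the last an alternative chosen after seeing the data. The 7 include Krt6b, read in 1 of 80 and 1 of 76 inflamed cells, and Sprr1b, read in 3 and 2. The intervals of both overlap those of the naive cells. The same count was not made over all genes, so these counts are not read as a result about the 9. Of the 6 pairs among Krt6a, Krt16, Krt13 and Krt23, 4 exceeded the product of their shares in both inflamed batches at 1 read and in thinned cells, and 2 at 5 reads. Cells with 2 or more of these 4, at 77.5% and 64.5% inflamed against 7.55% and 15.3% naive at 1 read, came to 46.3% and 42.1% against 0 and 0 at 5 reads, to 68.6% and 55.6% against 4.35% and 12.7% in thinned cells, and to 42.9% and 41.7% against 0 and 0 at 5 reads in thinned cells, all 3 chosen after seeing the data. The cause of these differences was not tested, except that a limit of 5 reads counts fewer cells by construction. Of 36 within-batch folds with no test, 5 moved by more than the spread of the batches, all without the top cell of each sum. These were Krt23, Krt80, Krt10, Sprr1a and Sprr1b. The 36 include each batch alone, which by construction cannot move by more than that spread, so 5 of 36 does not measure stability. Krt6b was not counted as moved, but its mean log2 fold went from 2.77 to 0.00 without the top cells, as no read was left.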
